A study of Mus musculus with 9 samples.

Results

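Cytochrome c oxidase, complex IV of the respiratory chain, carries several subunits for which the mouse genome holds more than 1 gene, and the transcripts of AA467197 and of 9 genes around such exchanges were followed here. AA467197, also known as Nmes1, encodes a small protein related to Ndufa4. It was selected on its own values in these libraries, a higher level with oxygen-glucose deprivation (OGD) and a lower level when A-485 was added. The other 9 genes, Ndufa4, Ndufa4l2, Cox4i1, Cox4i2, Cox7a1, Cox7a2, Cox7a2l, Higd1a and Lonp1, were chosen by what they are known to do, with earlier results of these data in view. All 10 genes were found among the 54532 genes of the deposited table.

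The RNA came from BV2 cells, an immortalized line of mouse microglia, the resident macrophages of the brain. There were 3 groups of 3 libraries: untreated cells (Ctrl), cells under OGD, and cells under OGD with A-485, an inhibitor of the acetyltransferases P300 and CBP. In the study's methods, OGD cells were kept in low-glucose medium with 4% serum at 4% oxygen, and Ctrl cells in medium with 10% serum, so that oxygen, glucose and serum differ together between these groups and cannot be told apart. In the experiments described ahead of the sequencing, A-485 was given at 50 µM as OGD began, and OGD lasted 24 h. The time and dose were not given again for the sequenced cells, and no library came from cells with A-485 but without OGD. The values are FPKM, counts of sequenced fragments scaled by gene length and library size. Levels of different genes can then be set beside each other as far as the counted lengths hold. Between 12593250 and 16091038 reads fell on genes in a library, and 1 read on a gene of 1 kb was worth 0.0618 to 0.0786 FPKM.

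The label of the cells was checked against marker genes. Of 14 markers of microglia and macrophages, 12 had a mean of at least 1 FPKM, the most abundant being Cd68 at 343 FPKM, while Sall1, a transcription factor of microglia in the brain, lay under 0.1 FPKM. All 5 astrocyte and all 5 neuron markers had a mean under 0.1 FPKM over the 9 libraries, with Aqp4 and Gja1 at 0 in every library. Of 8 mural and muscle markers none had a mean of 1 FPKM, the most abundant was Acta2 with a mean of 0.797 FPKM and 1.15 FPKM in A-485 replicate 1, and Kcnj8 was at 0. Of 5 oligodendrocyte markers, Cnp had a mean of 11.8 FPKM and Mog and Mag were at 0. The summed level of the 14 microglia and macrophage markers moved with the groups: 588, 606 and 585 FPKM in the Ctrl libraries, 761, 761 and 779 FPKM with OGD, and 1354, 1313 and 1348 FPKM with OGD and A-485. Its part in the results was not tested. In bulk RNA of a single cell line, a change in every cell and a change in some of the cells cannot be told apart.

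Complex IV passes electrons from cytochrome c to oxygen. Its catalytic core is encoded in mitochondrial DNA, and the nuclear subunits around it tune its activity and stability. NDUFA4, first counted as a subunit of complex I, is a peripheral subunit of complex IV, and the AA467197 protein can take its place in inflamed cells. NDUFA4L2 is a relative induced by the hypoxia-inducible factor HIF-1. COX4I2 is the isoform of COX4I1 induced by low oxygen in some tissues, and the mitochondrial protease LONP1 is known to degrade COX4I1 under hypoxia. COX7A1 is the isoform of heart and skeletal muscle, COX7A2 the ubiquitous one, and COX7A2L (SCAF1) joins complex IV to complex III. HIGD1A is a small hypoxia-induced protein that binds complex IV.

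The AA467197 gene (ENSMUSG00000033213) lies on the plus strand of GRCm38 at chr2:122636986-122641191, and 1203 bases of it were counted. Its last exon carries the hairpin of Mir147, at chr2:122640803-122640881, inside the 3′ untranslated region of AA467197-201 and AA467197-202. The mature miR-147 of the 5′ arm, chr2:122640814-122640837 on the plus strand, is shown because it is cut from the same transcript, with the seed (bases 2 to 8) in capitals. Sequences are from RefSeq, GRCm38.p6.
mmu-miR-147-5p: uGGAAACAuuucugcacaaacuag
Mir147 was listed at 0 FPKM in all 9 libraries. How reads that lie on both genes were assigned is not given in the sources used here, so the level of the hairpin cannot be read from these values.

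AA467197 stood at 8.46, 7.58 and 8.32 FPKM in the Ctrl libraries, at 60.0, 73.9 and 62.9 FPKM with OGD, and at 4.55, 4.89 and 5.30 FPKM with OGD and A-485. The 3 OGD libraries were far above the other 6, and the A-485 libraries lay below all Ctrl libraries. These values rest on 130 to 162 reads in Ctrl, 919 to 1158 with OGD and 80 to 93 with A-485. The group means were 8.12 ± 0.471 FPKM (SD, n = 3) in Ctrl, 65.6 ± 7.34 FPKM (SD, n = 3) with OGD and 4.92 ± 0.377 FPKM (SD, n = 3) with A-485, so OGD was 8.08-fold above Ctrl and 13.3-fold above OGD with A-485. On the scale of log2(FPKM + 0.1), the differences were 2.99 for OGD against Ctrl, -3.71 for A-485 against OGD and -0.71 for A-485 against Ctrl. Since this pattern chose the gene, no test is given for it. Among the 11898 genes averaging 1 FPKM or more, its rise with OGD ranked 27 and its fall with A-485 ranked 42 by log2 fold change. High ranks follow from that choice and are a description only.

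**Figure D1:**
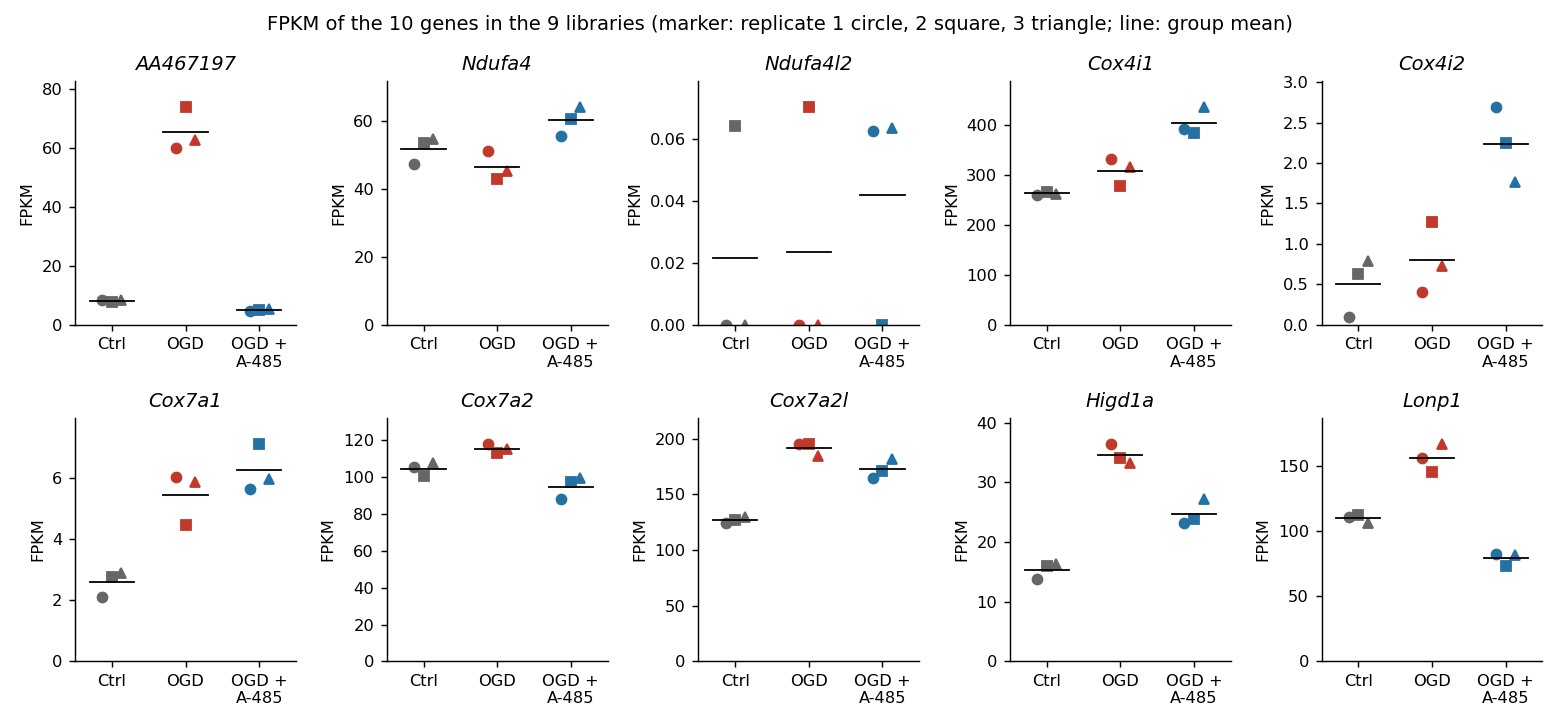
FPKM (vertical axes, from 0) of the 10 genes in each library of the Ctrl, OGD and OGD + A-485 groups (horizontal axes); each point is 1 library, the marker gives its replicate number and the line is the mean of the group. AA467197 was at 60.0 to 73.9 FPKM with OGD and under 8.5 FPKM elsewhere, Lonp1 was highest with OGD and lowest with A-485, and Ndufa4l2 had at most 1 read in a library.

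Ndufa4, the subunit whose place the AA467197 protein can take, was at 47.4, 53.6 and 54.6 FPKM in Ctrl, at 51.1, 42.8 and 45.3 FPKM with OGD and at 55.7, 60.7 and 64.1 FPKM with A-485. The Ctrl and OGD libraries overlapped, and the A-485 libraries were above both. OGD against Ctrl gave a log2 fold change of -0.16 (95% interval -0.35 to 0.03, limma, adjusted p = 0.149), and -0.11 without OGD replicate 2. A-485 against OGD gave 0.38 (95% interval 0.19 to 0.56, limma, adjusted p = 0.00468), short of the fold needed for a call, and 0.23 with quantile normalization. A-485 against Ctrl gave 0.21 (limma, adjusted p = 0.0522), and 0.05 with equal total FPKM, 0.09 with quantile normalization, 0.10 with limma-voom and 0.13 with the median of the 50 nearest genes taken off.

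Ndufa4l2, the HIF-induced relative, was practically absent. It had 0 reads in 5 libraries and 1 read in each of Ctrl 2, OGD 2, A-485 1 and A-485 3, or at most 0.0701 FPKM, and no fold change is given.

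Set beside each other per length, AA467197 made up 15.2%, 12.4% and 13.2% of the summed FPKM of AA467197, Ndufa4 and Ndufa4l2 in the Ctrl libraries. With OGD its share was 54.0%, 63.3% and 58.1%, and with OGD and A-485 it was 7.55%, 7.46% and 7.64%. In all 3 OGD libraries AA467197 was thus above Ndufa4, at 117%, 173% and 139% of its level, while in the other 6 it was at 8.06% to 17.9%. In reads, before division by the lengths of 1203 and 1381 bases, the OGD libraries had 919 against 898, 1158 against 770 and 1065 against 880. The shares depend on the length counted for each gene, and the use of its transcripts was not measured. The sum over the 3 genes was 60.0 ± 3.69 FPKM (SD, n = 3) in Ctrl, 112 ± 4.38 FPKM (SD, n = 3) with OGD and 65.1 ± 4.59 FPKM (SD, n = 3) with A-485. These shares are of transcripts, proteins were not measured, and no test is given since AA467197 was chosen on its change.

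**Figure D2:**
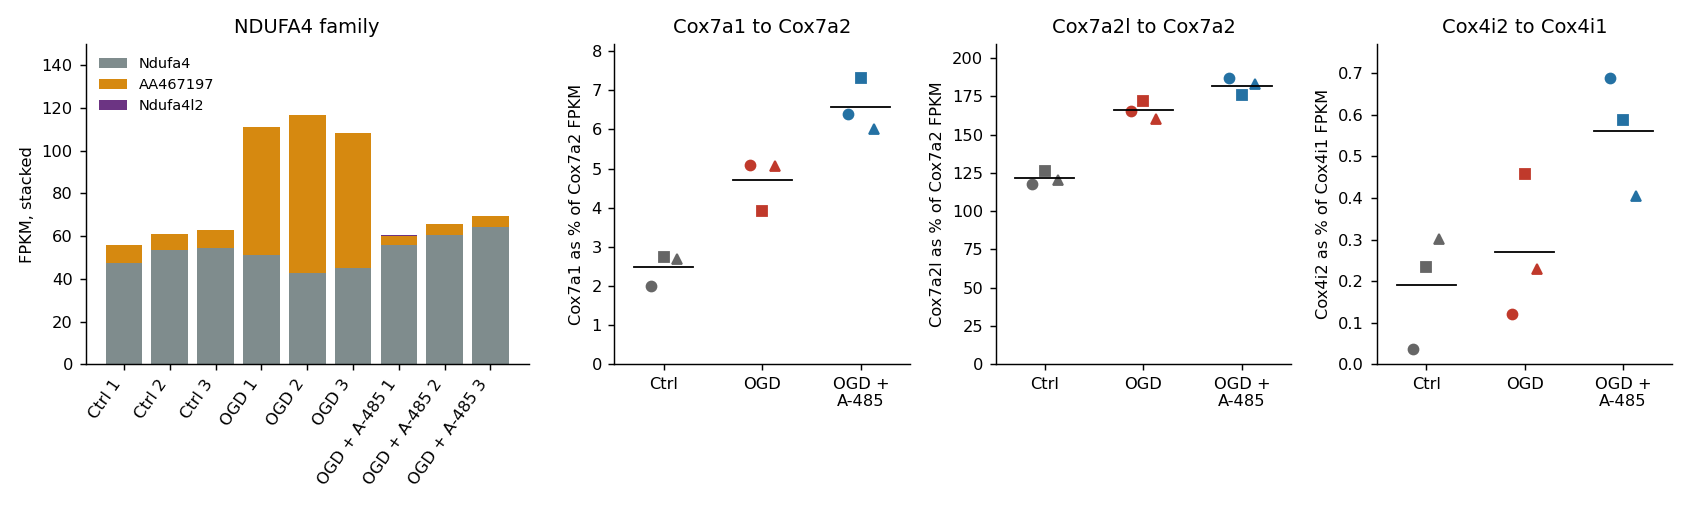
Left, stacked FPKM of Ndufa4, AA467197 and Ndufa4l2 in the 9 libraries, and right Cox7a1 and Cox7a2l as a percent of Cox7a2 and Cox4i2 as a percent of Cox4i1, with 1 point for a library and a line at the group mean. Cox7a1 was at 2.47% of Cox7a2 in Ctrl, 4.70% with OGD and 6.57% with A-485, without overlap of the groups, while in the Cox4i2 panel OGD overlaps both Ctrl and A-485 and no library passes 1%.

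For the comparisons across genes, limma was fitted to log2(FPKM + 0.1), a scale that understates the change of low genes, for the 16123 genes averaging 0.2 FPKM or more. Called means here an unadjusted p under 0.01 together with a log2 fold change above 0.5 in size. Adjusted p-values are over all 16123 genes. Nothing in the labels says that the replicates were separate cultures, and the p-values then measure only the spread between these libraries, which may be technical. The comparison of A-485 with OGD uses the same OGD libraries as that of OGD with Ctrl, and the values of each are given side by side. Of the 10 genes, 9 passed the filter on low values, and without AA467197 there were 8 to test.

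OGD against Ctrl sets cells with less oxygen, glucose and serum beside untreated cells. Of the 8 genes tested, 4 were called higher, Higd1a, Cox7a1, Cox7a2l and Lonp1, beside 11.2% of all genes called higher. In the other direction 0 of the 8 were called, beside 9.81% of all genes called lower, and limma gave 0 lower at an unadjusted p under 0.05 and limma-voom 0. A-485 against OGD sets cells with the inhibitor beside cells without it, both under OGD. Here 0 of the 8 genes were called higher, beside 12.2% of all genes, though 3 were higher at an unadjusted p under 0.05 by limma and 1 was called higher by limma-voom. Lonp1 was the 1 gene called lower, beside 13.4% of all genes called lower. In A-485 against Ctrl, 4 of the 8 were called higher, Cox4i2, Cox7a1, Higd1a and Cox4i1, beside 17% of all genes, and 0 lower beside 16.6%, with 2 lower at an unadjusted p under 0.05 by limma and 1 called lower by limma-voom. Where each library was first scaled to the same total FPKM, the split of calls over all genes moved from 1803 higher and 1581 lower to 1529 and 1951 in OGD against Ctrl, from 1974 higher and 2165 lower to 1549 and 2645 in A-485 against OGD, and from 2747 and 2684 to 2072 and 3657 in A-485 against Ctrl. The median of all genes in A-485 against Ctrl moved from 0.02 to -0.13 with it.

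**Figure D3:**
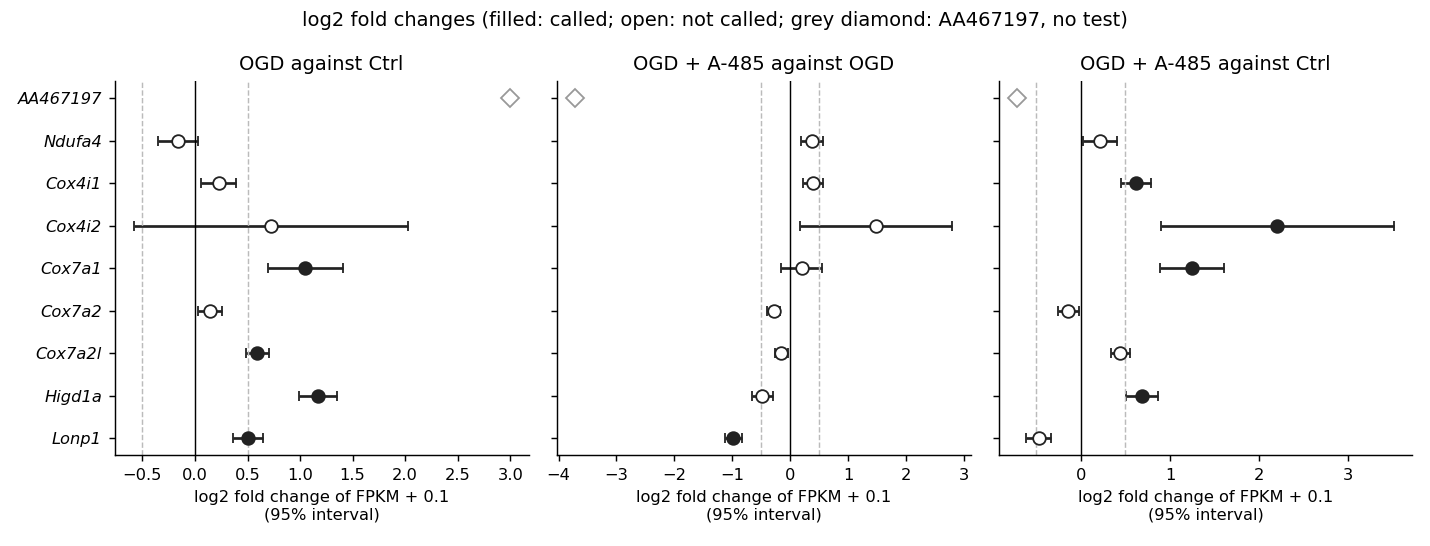
Log2 fold changes of FPKM + 0.1 (horizontal axes) of AA467197 and, with 95% intervals from limma, of the 8 genes tested (vertical axis) in 3 comparisons; filled points were called, open ones were not, the diamond is AA467197, which has no test and no interval, and dashed lines mark 0.5 in size. Higd1a, Cox7a1, Cox7a2l and Lonp1 are filled in OGD against Ctrl, and Lonp1 alone in A-485 against OGD.

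Among the subunits, Cox7a1, the muscle isoform of the COX7A pair, was at 2.10, 2.75 and 2.89 FPKM in Ctrl, at 6.02, 4.45 and 5.85 FPKM with OGD and at 5.63, 7.10 and 5.96 FPKM with A-485. Every Ctrl library was below the other 6, and the OGD and A-485 libraries overlapped. It rose with OGD by a log2 fold change of 1.05 ± 0.16 (SE, limma, adjusted p = 0.000617), on 15 to 25 reads in Ctrl and 31 to 44 with OGD. A-485 against OGD gave 0.20 (95% interval -0.16 to 0.56, limma, adjusted p = 0.334), or 0.10 with equal total FPKM and without A-485 replicate 2 and 0.06 without OGD replicate 2, and A-485 against Ctrl 1.25 ± 0.16 (SE, limma, adjusted p = 0.000133).

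Cox7a2, the ubiquitous isoform, was at 105, 100 and 108 FPKM in Ctrl, at 118, 113 and 115 FPKM with OGD and at 88.1, 97.2 and 99.4 FPKM with A-485. The groups did not overlap, but the differences were small. They came to 0.15 (limma, adjusted p = 0.0445) for OGD against Ctrl and to -0.29 (limma, adjusted p = 0.00146) for A-485 against OGD, neither called. The first was 0.08 with equal total FPKM, 0.10 with limma-voom and 0.29 once the median of the 50 nearest genes was taken off, which brought the second to 0.07, and the value of A-485 against Ctrl moved from -0.14 to 0.32. Before that step, the last value was -0.25 with limma-voom, -0.28 with quantile normalization, -0.30 with equal total FPKM and -0.09 without A-485 replicate 1. The 50 nearest genes reached up to 7293 kb from Cox7a2, so their median is not that of close neighbours alone.

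Cox7a2l, the factor that joins complex IV to complex III, was at 124, 127 and 130 FPKM in Ctrl, at 195, 195 and 184 FPKM with OGD and at 165, 171 and 182 FPKM with A-485. OGD was highest, A-485 between, and no library of a group reached another group. With OGD it rose by 0.59 ± 0.05 (SE, limma, adjusted p = 1.59e-05), which fell under the fold for a call with quantile normalization (0.47). A-485 against OGD gave -0.15 (limma, adjusted p = 0.0244), not called, and was -0.23 with quantile normalization, -0.25 with equal total FPKM and 0.14 once the median of neighbouring genes was taken off. A-485 against Ctrl gave 0.44 (limma, adjusted p = 4.56e-05), not called. That value was 0.23 with quantile normalization, 0.28 with equal total FPKM and 0.87 with the neighbouring median taken off.

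Within a library, Cox7a1 was 1.99%, 2.74% and 2.68% of Cox7a2 in Ctrl, 5.09%, 3.92% and 5.08% with OGD and 6.39%, 7.31% and 5.999% with A-485. Cox7a2l was 118%, 126% and 121% of Cox7a2 in Ctrl, 165%, 172% and 160% with OGD and 187%, 176% and 183% with A-485. For both ratios the 3 groups followed the order Ctrl, OGD, A-485 without overlap. In A-485 against OGD, Cox7a2, the divisor of both ratios, was itself lower (-0.29). Cox7a2l was lower too (-0.15), and Cox7a1 overlapped between these groups (0.20). The log2 ratio of Cox7a1 to Cox7a2 was 0.90 higher with OGD than in Ctrl and 0.48 higher with A-485 than with OGD, each at an exact two-sided permutation p of 0.1 (0.129 adjusted over 9 ratio tests). For Cox7a2l to Cox7a2 the differences were 0.45 and 0.13, at the same exact permutation p of 0.1. With 3 libraries against 3, 0.1 is the smallest p that this test allows, so these tests could not pass 0.05.

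Cox4i1, the ubiquitous isoform of subunit 4 and the most abundant of the 10 transcripts, was at 260, 266 and 261 FPKM in Ctrl, at 332, 276 and 315 FPKM with OGD and at 391, 383 and 435 FPKM with A-485. The groups rose in that order without overlap. OGD against Ctrl gave a log2 fold change of 0.23 (limma, adjusted p = 0.034), not called and turning to -0.10 with quantile normalization. A-485 against OGD gave 0.39 (limma, adjusted p = 0.00198), not called, and 0.15 with quantile normalization and 0.17 with the neighbouring median taken off. A-485 against Ctrl was called at 0.62 ± 0.07 (SE, limma, adjusted p = 9.45e-05), but the call was lost with quantile normalization (0.06), with equal total FPKM (0.46) and with the neighbouring median taken off (0.49).

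Cox4i2, the low-oxygen isoform, was near the limit of detection at 0.0950, 0.623 and 0.784 FPKM in Ctrl, at 0.399, 1.27 and 0.722 FPKM with OGD and at 2.69, 2.25 and 1.76 FPKM with A-485, on 1 to 10, 4 to 13 and 20 to 31 reads. Ctrl and OGD overlapped, and the A-485 libraries were above all others. The difference of OGD from Ctrl was not detectable at this depth (0.72, 95% interval -0.58 to 2.03, limma, adjusted p = 0.348). It ran from 0.04 without Ctrl replicate 1 to 1.13 without Ctrl replicate 3, and was 0.36 without OGD replicate 2, 1.09 without OGD replicate 1 and 0.26 with a pseudocount of 1. Between A-485 and OGD it was 1.48 (95% interval 0.17 to 2.79, limma, adjusted p = 0.0597), not called. The same difference was called without Ctrl replicate 1, where Cox4i2 had 1 read, with limma-voom (1.48) and with a pseudocount of 1 (0.87). A-485 against Ctrl was called at 2.20 ± 0.57 (SE, limma, adjusted p = 0.00951), and the call was lost without A-485 replicate 1 (2.07) and without A-485 replicate 2 (2.19), while a pseudocount of 1 gave 1.13. Even so Cox4i2 made up little beside its partner. It was at 0.191% of Cox4i1 in the mean of Ctrl, at 0.269% with OGD and at 0.560% with A-485. The log2 ratio of the pair had an exact permutation p of 0.7 for OGD against Ctrl, 0.2 for A-485 against OGD and 0.1 for A-485 against Ctrl, with adjusted values of 0.7, 0.225 and 0.129.

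Higd1a, the hypoxia-induced binding partner of complex IV, was at 13.8, 16.0 and 16.3 FPKM in Ctrl, at 36.5, 34.1 and 33.2 FPKM with OGD and at 23.3, 23.8 and 27.2 FPKM with A-485. OGD stood clear above the others, and A-485 lay between OGD and Ctrl. It rose with OGD by 1.17 ± 0.08 (SE, limma, adjusted p = 7.21e-06), and A-485 against Ctrl was called too at 0.69 ± 0.08 (SE, limma, adjusted p = 7.94e-05). A-485 against OGD gave -0.48 ± 0.08 (SE, limma, adjusted p = 0.000903), just short of the fold for a call. It was called with quantile normalization (-0.58), with equal total FPKM (-0.58), with limma-voom (-0.55), without OGD replicate 3 (-0.51) and without A-485 replicate 3 (-0.55), and it shrank to -0.09 with the neighbouring median taken off. Of the 50-base stretches of Higd1a transcripts, 24.4% also occur in other genes, 19.4% in the antisense gene Gm47112 at 0.158 FPKM and 4.81% in the processed pseudogene Gm9790. Gm9790 was at 6.61 ± 0.777, 15.1 ± 4.82 and 11.9 ± 4.06 FPKM (SD, n = 3) in Ctrl, OGD and A-485. How reads common to both were counted is not given in the sources used here, so the levels of Higd1a and Gm9790 are uncertain to an extent that was not measured.

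Lonp1, the mitochondrial protease, was at 110, 112 and 106 FPKM in Ctrl, at 156, 145 and 167 FPKM with OGD and at 82.1, 73.3 and 81.5 FPKM with A-485. As for AA467197, OGD was highest and A-485 lowest, and no group reached another. The rise with OGD was 0.50 ± 0.06 (SE, limma, adjusted p = 0.000205), at the edge of the fold for a call. It lost the call without Ctrl replicate 3 (0.48), without OGD replicate 3 (0.45), with quantile normalization (0.45), with equal total FPKM (0.44), with limma-voom (0.46) and with the neighbouring median taken off (0.40). The fall with A-485 was clearer, -0.98 ± 0.06 (SE, limma, adjusted p = 3.24e-06), and passed the fold for a call under every alternative tried, being smallest, at -0.61, with the neighbouring median taken off. A-485 against Ctrl gave -0.47 (limma, adjusted p = 0.000177), not called, and was called without A-485 replicate 1 (-0.50), with quantile normalization (-0.64), with equal total FPKM (-0.64) and with limma-voom (-0.59).

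Of the other genes that could share reads with the 10, Gm6969, a processed pseudogene, holds 13.8% of the 50-base stretches of Cox7a2l and was at 1.59, 2.41 and 3.30 FPKM in the means of Ctrl, OGD and A-485. Emc8 overlaps 352 bases of Cox4i1 on the other strand and was at 9.41, 5.58 and 8.11 FPKM, and Gm20388, listed at 0 FPKM in every library, spans all 5986 bases of Cox4i1 on the same strand. Ndufa4l2 overlaps 32 bases of Shmt2, at 89.3 FPKM over all libraries, also on the other strand. Whether strand was used in counting is not given in the sources used here, so reads on those bases cannot be assigned. Ndufa4, Ndufa4l2, Cox4i2, Cox7a1, Cox7a2 and Lonp1 had no 50-base stretch in common with a transcript of another gene.

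Promoters of 7 of the 10 genes, 250 bases before to 50 bases after the start of the gene, were found in the RefSeq table (GRCm38.p6), those of AA467197, Ndufa4, Cox7a1, Cox7a2, Cox7a2l, Higd1a and Lonp1. The windows use the RefSeq starts, and those of AA467197 and Higd1a lie downstream of the starts of these genes in the deposited table. Both strands were searched for the cores of the hypoxia response element, ACGTG and GCGTG, for the AP-1 motif TGANTCA, for the ETS motif CCGGAAG and for the NF-kB and NRF-1 consensus motifs. ACGTG was in 4 of the 7, beside 19.6% of all 32851 promoters in the table, and GCGTG in 6 of the 7, beside 32.4%. TGANTCA was in that of AA467197, beside 7.81% of all promoters, and CCGGAAG in that of Higd1a, beside 8.86%. Matches of the NF-kB consensus were in 0 of the 7, beside 8.46% of all promoters, and of the NRF-1 consensus in 0, beside 1.27%.

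The 4 promoters with ACGTG are shown for their letters; capitals mark every match, with CACGT and CACGC being the cores read on the other strand. AA467197 is at chr2:122637637-122637936 on the plus strand, Cox7a1 at chr7:30183921-30184220 on the plus strand, Higd1a at chr9:121857747-121858046 on the minus strand and Lonp1 at chr17:56626854-56627153 on the minus strand.
AA467197 promoter: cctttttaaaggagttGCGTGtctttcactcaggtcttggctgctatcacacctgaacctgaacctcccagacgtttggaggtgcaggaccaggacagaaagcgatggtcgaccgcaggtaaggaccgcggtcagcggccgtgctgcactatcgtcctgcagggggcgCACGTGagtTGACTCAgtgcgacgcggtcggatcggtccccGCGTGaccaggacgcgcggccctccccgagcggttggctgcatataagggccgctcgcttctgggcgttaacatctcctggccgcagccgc
Cox7a1 promoter: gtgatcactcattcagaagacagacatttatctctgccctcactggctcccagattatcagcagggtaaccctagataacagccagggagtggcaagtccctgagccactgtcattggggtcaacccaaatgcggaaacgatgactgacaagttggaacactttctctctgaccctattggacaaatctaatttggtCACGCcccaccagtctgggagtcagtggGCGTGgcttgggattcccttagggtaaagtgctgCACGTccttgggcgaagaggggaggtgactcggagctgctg
Higd1a promoter: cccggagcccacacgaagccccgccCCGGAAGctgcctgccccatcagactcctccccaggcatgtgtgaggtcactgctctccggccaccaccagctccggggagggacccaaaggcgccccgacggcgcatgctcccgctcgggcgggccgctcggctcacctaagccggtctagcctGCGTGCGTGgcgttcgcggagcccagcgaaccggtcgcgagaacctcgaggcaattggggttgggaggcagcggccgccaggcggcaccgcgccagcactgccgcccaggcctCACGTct
Lonp1 promoter: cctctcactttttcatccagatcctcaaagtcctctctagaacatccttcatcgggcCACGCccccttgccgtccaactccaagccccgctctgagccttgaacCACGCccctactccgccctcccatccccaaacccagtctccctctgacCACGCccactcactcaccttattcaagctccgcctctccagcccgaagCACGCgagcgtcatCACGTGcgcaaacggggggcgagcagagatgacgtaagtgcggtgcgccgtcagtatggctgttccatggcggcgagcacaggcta
In AA467197 the ACGTG core starts 82 bases before the RefSeq start as part of CACGTG, which reads the same on both strands, and TGACTCA follows 3 bases after it, 73 bases before the start. Lonp1 has a CACGTG as well, 36 bases before its start, and 4 further matches of GCGTG. In Cox7a1 and Higd1a the ACGTG core lies after the RefSeq start. A match describes these letters and not the binding of a factor, which was not measured in these libraries. The promoter of Cox7a2l, a gene called higher with OGD, held none of these motifs. Those of Cox7a2, whose mean was also highest with OGD, and of Ndufa4, which overlapped between Ctrl and OGD, held GCGTG without ACGTG.

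The rest of complex IV was followed through lists of genes, each described by its calls, to be read beside the shares of all genes called that were given above, and by its median beside that of all genes tested, 0.01 in both OGD against Ctrl and A-485 against OGD and 0.02 in A-485 against Ctrl. Of 13 further nuclear subunits, 9 were tested (Cox6b2, Cox7b2, Cox8b and Cox8c were too low). With OGD, limma called 0 of them in either direction and limma-voom 0, with 2 higher and 1 lower at an unadjusted p under 0.05, and their median was 0.06. With an adjusted p under 0.05 in place of the unadjusted one, and without Ctrl replicate 2, 1 was called higher. A-485 against OGD had 2 called higher and 0 lower, with a median of 0.31, and 0 were lower by limma-voom or at an unadjusted p under 0.05 by limma. Cox6a2, the isoform of heart and skeletal muscle, went from 0.366 ± 0.148 FPKM (SD, n = 3) in Ctrl and 0.694 ± 0.214 FPKM (SD, n = 3) with OGD to 9.15 ± 0.458 FPKM (SD, n = 3) with A-485, a log2 fold change of 3.57 ± 0.26 against OGD (SE, limma, adjusted p = 6.44e-06). It had 2 to 9 reads in the Ctrl and OGD libraries and 86 to 97 with A-485. Cox5b, a zinc-binding subunit, rose by 0.59 ± 0.09 (SE, limma, adjusted p = 0.000438), which was 0.44 with quantile normalization and 0.50, no longer called, with equal total FPKM. Against Ctrl, A-485 gave 3 called higher and 0 lower (1 lower at an unadjusted p under 0.05 by limma, 0 by limma-voom), with a median of 0.36. They were Cox6a2 (4.36), Cox6a1, its ubiquitous partner (0.55), and Cox5b (0.55). The call of Cox6a1 was lost with quantile normalization (0.13), equal total FPKM (0.39), limma-voom (0.44) and without A-485 replicate 3 (0.48), and that of Cox5b with quantile normalization (0.41), equal total FPKM (0.39) and limma-voom (0.44).

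The core subunits encoded in mitochondrial DNA, mt-Co1, mt-Co2 and mt-Co3, had a median of -0.43 in OGD against Ctrl with 0 of 3 called by limma, 1 lower at an unadjusted p under 0.05 and 1 called lower by limma-voom, and 0 to 2 called lower over all alternatives. That median is the value of mt-Co2, whose Ctrl and OGD libraries overlapped (limma, adjusted p = 0.221). Over all libraries mt-Co1 averaged 6038 FPKM, mt-Co2 146 FPKM and mt-Co3 72.8 FPKM. Whether these genes share reads with other genes was not examined. With A-485 against OGD the median was 0.68 and 1 of 3 was called, higher, with 0 lower by limma at an unadjusted p under 0.05 and by limma-voom. That gene was mt-Co1, at 6256 ± 555 FPKM in Ctrl, 4555 ± 372 FPKM with OGD and 7302 ± 464 FPKM with A-485 (SD, n = 3), a rise of 0.68 ± 0.12 (SE, limma, adjusted p = 0.00133). The call was lost without the filter on low values, a step that leaves the log2 fold change of the gene at 0.68. With limma-voom 3 of 3 were called, the range over all alternatives being 0 to 3. A-485 against Ctrl had 0 called by limma and by limma-voom and 0 at an unadjusted p under 0.05, with a median of 0.23. The share of all reads on mitochondrial genes was 1.82% to 2.20% in Ctrl, 1.14% to 1.28% with OGD and 1.66% to 2.01% with A-485, lowest with OGD. Reads on mt-Co1 are included in that share, with 118219 to 170970 in Ctrl, 82702 to 99473 with OGD and 153428 to 188105 with A-485. The part of the share in the values of mt-Co1 was not tested.

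Of 26 assembly factors of complex IV, 23 were tested (Sco2, Cox20 and Pet117 were not). OGD against Ctrl called 5 lower and 2 higher, with a median of -0.08. Coa7 fell by 1.10 on the log2 scale (limma, adjusted p = 0.000197), from 3.77 ± 0.251 to 1.73 ± 0.345 FPKM (SD, n = 3). Cox10, which makes heme O for the core, fell by 0.81 (limma, adjusted p = 4.25e-05) and Taco1, a translation activator of mt-Co1, fell by 0.67 (limma, adjusted p = 1.91e-05). Cox17, a copper chaperone, rose by 0.77 (limma, adjusted p = 0.000888), while Cmc1, called at 0.55, lost the call without each of the 3 Ctrl replicates (0.50 to 0.63), OGD replicates 1 (0.47) and 2 (0.52) or A-485 replicate 3, and with 4 of the other alternatives. Between A-485 and OGD 3 of 23 were called higher and 3 lower, beside 12.2% and 13.4% of all genes, with a median of 0.17, or 2 to 5 and 2 to 3 over all alternatives. Cox17 fell by 0.87 (limma, adjusted p = 0.000365), back from 4.27 ± 0.546 to 2.28 ± 0.0795 FPKM (SD, n = 3), Cox15 fell by 0.58 (limma, adjusted p = 1.63e-05) and Cox18 fell by 0.56 (limma, adjusted p = 0.00836). Slirp (0.95), Coa7 (0.71) and Coa5 (0.62) were called higher. Cox18 lost the call with a pseudocount of 1 and without OGD replicates 1 (-0.53) or 2 (-0.56) or A-485 replicate 2 (-0.42), and Slirp with a pseudocount of 1 (0.48) and without A-485 replicate 1 (0.79). A-485 against Ctrl called 2 higher, Coa4 (0.94) and Cox19 (0.69), and 5 lower, among them Cox18 (-0.84), Taco1 (-0.77) and Coa3 (-0.70), with a median of -0.01.

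**Figure D4:**
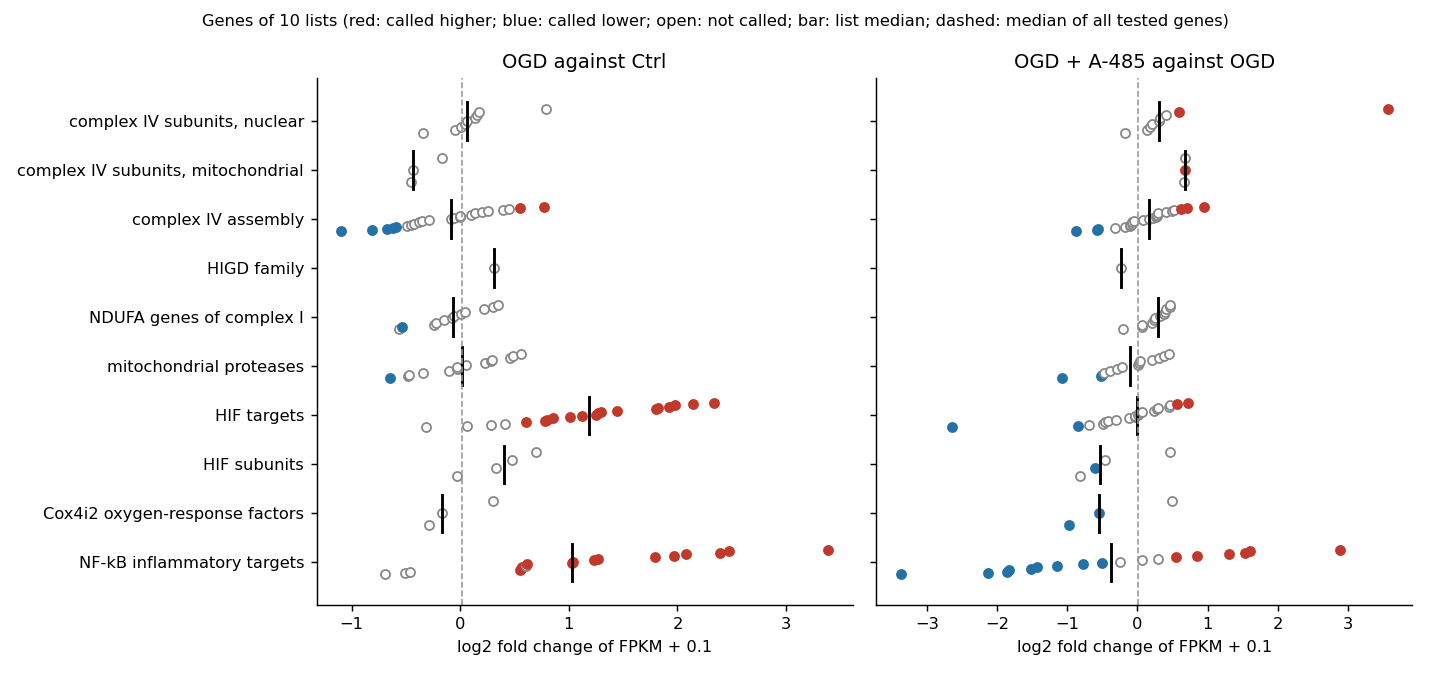
Log2 fold changes of FPKM + 0.1 (horizontal axes) of the tested genes of 10 lists (vertical axis) in OGD against Ctrl and in A-485 against OGD; red points were called higher, blue lower, open ones not called, black bars are list medians and the dashed line is the median of all tested genes. With OGD the medians of the HIF and NF-kB targets were 1.19 and 1.03 and that of the nuclear complex IV subunits 0.06, and Cox6a2 stands apart with A-485 at 3.57.

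The 12 NDUFA genes of complex I, the family in whose name Ndufa4 stands, had a median of -0.07 in OGD against Ctrl, with Ndufa5 called lower (-0.53, limma, adjusted p = 0.00102), a call lost without Ctrl replicate 2 (-0.47) and without OGD replicate 2 (-0.48), and 0 called higher, with 2 higher at an unadjusted p under 0.05 by limma and 0 by limma-voom. For A-485 against OGD their median was 0.29 with 0 called by limma and by limma-voom, although 6 were higher and 1 lower at an unadjusted p under 0.05 and 0 to 2 were called higher over all alternatives. Against Ctrl, A-485 had 2 of 12 called higher, beside 17% of all genes, Ndufa1 (0.75) and Ndufa6 (0.63), the second lost with equal total FPKM (0.47), and 0 lower (2 at an unadjusted p under 0.05 by limma, 1 by limma-voom), with a median of 0.22. Of the 3 relatives of Higd1a, Higd1b and Higd1c were too low to test. Higd2a, a complex IV assembly factor, was at 56.3 ± 2.80, 69.9 ± 2.59 and 59.3 ± 4.04 FPKM (SD, n = 3) in Ctrl, OGD and A-485, not called in any comparison, with 0.31 (limma, adjusted p = 0.0022), -0.24 (limma, adjusted p = 0.00831) and 0.07 (limma, adjusted p = 0.313).

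Beside Lonp1, 14 other mitochondrial proteases and processing peptidases were tested. With OGD 0 were called higher and 1 lower, Htra2 (-0.64 ± 0.12, SE, limma, adjusted p = 0.00192), with a list median of 0.01, and at an unadjusted p under 0.05 there were 5 higher and 4 lower, with 0 higher and 3 lower by limma-voom. Over all alternatives 0 to 2 were called higher and 1 to 3 lower. A-485 against OGD had 3 of 14 called lower and 0 higher, beside 13.4% and 12.2% of all genes, with a median of -0.10, and 3 higher at an unadjusted p under 0.05 by limma and 0 by limma-voom, or 1 to 4 lower and 0 to 1 higher over all alternatives. Clpx, the unfoldase of the other soluble matrix protease, fell by 1.08 (SE 0.05, limma, adjusted p = 4.45e-07), from 26.7 ± 0.647 to 12.6 ± 0.716 FPKM (SD, n = 3). Its protease partner Clpp fell by 0.51 (limma, adjusted p = 9.13e-05) and Spg7, of the inner membrane, fell by 0.51 (limma, adjusted p = 0.000273). Both lost the call with a pseudocount of 1 (-0.49 each), Clpp also without OGD replicate 3 (-0.45) or A-485 replicate 2 (-0.47), and Spg7 without OGD replicates 1 or 3 (-0.49 each) or A-485 replicate 2 (-0.45). A-485 against Ctrl had 4 called lower, among them Htra2 (-0.94), Pitrm1 (-0.86) and Clpp (-0.85), and Immp2l higher (1.01), with a median of -0.04.

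The 20 genes listed as HIF targets are known to respond to low oxygen, which was not separated here from low glucose and serum. In OGD against Ctrl 16 of 20 were called higher and 0 lower, with a median of 1.19, and limma-voom called 16 higher and 0 lower, with 1 lower at an unadjusted p under 0.05 by limma. The leading genes were P4ha2, a collagen prolyl hydroxylase (2.34), Adm, which encodes adrenomedullin (2.14), and Egln3, a prolyl hydroxylase that acts on HIF (1.98). With A-485 against OGD 2 were called higher, P4ha1 (0.73) and P4ha2 (0.57), and 2 lower, with a median of -0.01, or 1 to 3 and 2 to 5 over all alternatives. Egln3 fell by 2.65 (limma, adjusted p = 3.47e-09), from 335 ± 3.77 to 53.4 ± 0.846 FPKM (SD, n = 3), below the 84.8 ± 4.90 FPKM (SD, n = 3) of Ctrl, and Mxi1 fell by 0.85 (limma, adjusted p = 7.03e-07). The call of P4ha2 was lost with a pseudocount of 1 (0.42), with equal total FPKM (0.47) and without each of the OGD replicates 1 and 2 and the 3 A-485 replicates (0.51 to 0.59). Set against Ctrl, 16 of 20 were called higher with A-485, led by P4ha2 (2.90), Hilpda (1.82) and Ddit4 (1.72), and 3 lower, Car12 (-0.80), Egln3 (-0.66) and Mxi1 (-0.57), with a median of 1.18.

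Among the HIF subunits, Hif1a was at 37.4 ± 1.28, 36.7 ± 4.50 and 26.5 ± 0.536 FPKM (SD, n = 3) in Ctrl, OGD and A-485. In OGD against Ctrl 0 of 4 subunits were called by limma, with a median of 0.40, 2 higher at an unadjusted p under 0.05 and 1 called higher by limma-voom and by limma after quantile normalization. Arnt, the partner of the alpha subunits, was called lower in A-485 against OGD (-0.60 ± 0.05, SE, limma, adjusted p = 1.2e-05), and 0 were called higher (1 at an unadjusted p under 0.05 by limma, 0 by limma-voom), with a list median of -0.53. In the lower direction 3 of 4 had an unadjusted p under 0.05, limma-voom called 3, and 1 to 3 were called over all alternatives. Epas1 was called higher in A-485 against Ctrl (0.80 ± 0.07, SE, limma, adjusted p = 1.4e-05), with 0 lower (2 at an unadjusted p under 0.05 by limma, 1 by limma-voom) and a median of -0.12. Rbpj, Cxxc5 and Chchd2 are factors known to bind an oxygen-response element of the Cox4i2 gene. With OGD 0 of the 3 were called by limma and by limma-voom, 1 was higher at an unadjusted p under 0.05, and the median was -0.17. Between A-485 and OGD Cxxc5, known as a repressor at that element, fell by 0.98 (limma, adjusted p = 0.00283) and Rbpj fell by 0.55 (limma, adjusted p = 5.2e-05), a call lost without OGD replicate 2 (-0.49), with a median of -0.55. None was called higher by limma or by limma-voom, 1 was higher at an unadjusted p under 0.05, and 1 was called higher without OGD replicate 1, OGD replicate 3 or A-485 replicate 2. Cxxc5 was also called lower in A-485 against Ctrl (-1.26), with a median of -0.25 and 0 called higher (1 at an unadjusted p under 0.05 by limma, 0 by limma-voom).

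The 18 NF-kB targets cover the inflammatory setting in which the AA467197 protein is known. In OGD against Ctrl 14 of 18 were called higher and 0 lower, with a median of 1.03, 2 were lower at an unadjusted p under 0.05 by limma, limma-voom called 15 higher and 2 lower, and the ranges over all alternatives were 12 to 15 and 0 to 2. Ptgs2, the inducible prostaglandin synthase, rose by 3.39 ± 0.10, Il1a by 2.47 ± 0.14 and Nos2, the inducible nitric oxide synthase, by 2.40 ± 0.05 (SE, limma, adjusted p from 3.66e-08 to 3.01e-06). With A-485 against OGD the list split, with 6 called higher and 9 lower and a median of -0.38. Saa3 (2.89), Il1a (1.61) and Acod1, which makes itaconate (1.53), were called higher, and Il6 (-3.37), Csf2 (-2.12) and Cxcl10 (-1.86) lower. A-485 against Ctrl had 11 called higher, led by Il1a (4.08), Acod1 (2.76) and Tnfaip3 (2.52), and 4 lower, led by Il6 (-2.76), Cxcl10 (-2.55) and Csf2 (-1.08), with a median of 1.05.

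To name the genes whose pattern was most like that of AA467197, the log2(FPKM + 0.1) of each of 11897 other genes averaging 1 FPKM or more was centred on its mean over the 9 libraries, and the root mean square difference from AA467197 was taken. This is a description over libraries that fall into 3 groups. The median gene differed by 1.64. The 8 closest were 4930447F24Rik, a non-coding transcript (0.39), Ccdc155 (0.44), Lif (0.46), Rgs9 (0.50), Egln3 (0.50), Edn1 (0.51), F3 (0.54) and Stmn4 (0.56). Since they were picked by this likeness, their pattern is no result of its own. 4930447F24Rik was at 15.8 ± 1.79, 68.7 ± 1.73 and 7.14 ± 0.32 FPKM (SD, n = 3) in Ctrl, OGD and A-485, a range near that of AA467197. Lif, a cytokine, was at 1.07 ± 0.121, 4.37 ± 0.273 and 0.417 ± 0.123 FPKM (SD, n = 3). F3, the tissue factor that starts coagulation, was at 3.63 ± 0.146, 12.9 ± 0.223 and 1.75 ± 0.336 FPKM (SD, n = 3). Edn1, which encodes endothelin, was at 1.27 ± 0.188, 7.69 ± 0.900 and 1.27 ± 0.197 FPKM (SD, n = 3), level with Ctrl when A-485 was added, and Rgs9 was at 0.328 ± 0.0348, 2.71 ± 0.0790 and 0.365 ± 0.0712 FPKM (SD, n = 3). Of the 8 other genes followed here that average 1 FPKM or more, Lonp1 came closest with a difference of 1.24 at rank 415, followed by Higd1a with 1.33 at rank 730.

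Most of the nearest neighbours of AA467197 on chromosome 2 were not called in OGD against Ctrl. The same holds for most genes, since 11.2% of all genes were called higher and 9.81% lower. Of the 3 nearest tested genes on each side, Spata5l1 (0.06), Slc30a4 (-0.16), Bloc1s6 (0.19) and Bloc1s6os (-0.17) were not called, Gm14086 was listed at 0 in all Ctrl and OGD libraries, and Slc28a2 met the rule for a call, higher, but at 0.0621 and 0.241 FPKM, too low in both groups for a fold change to be read. Sqor, the fourth gene to the right at 124 kb and named after its values were seen, was called higher, from 3.79 ± 0.240 to 8.34 ± 0.590 FPKM (SD, n = 3, limma, adjusted p = 7.96e-06), and rose further with A-485 (0.51, limma, adjusted p = 0.00057). In A-485 against OGD, 13.4% of all genes were called lower and 12.2% higher. Of the neighbours, Spata5l1, 4.06 kb away, was called lower there (-0.80, limma, adjusted p = 0.00223), as were Slc30a4, a zinc transporter 40.0 kb away (-1.13, limma, adjusted p = 2.4e-06), and Bloc1s6, 97.3 kb away (-1.34, limma, adjusted p = 1.82e-07). Bloc1s6os gave -0.79 (limma, adjusted p = 0.163). Slc28a2, a nucleoside transporter gene 176 kb away, went the other way, from 0.241 ± 0.128 to 13.6 ± 0.388 FPKM (SD, n = 3). Gm14086, which lies within Slc28a2 on the same strand, was at 1.16 ± 1.19 FPKM (SD, n = 3) with A-485, and no fold over a group at 0 is given. The 50 nearest genes averaging 1 FPKM or more had a median of -0.09 in OGD against Ctrl and of 0.06 in A-485 against OGD, and taking it off left AA467197 at 3.09 and -3.77.

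**Figure D5:**
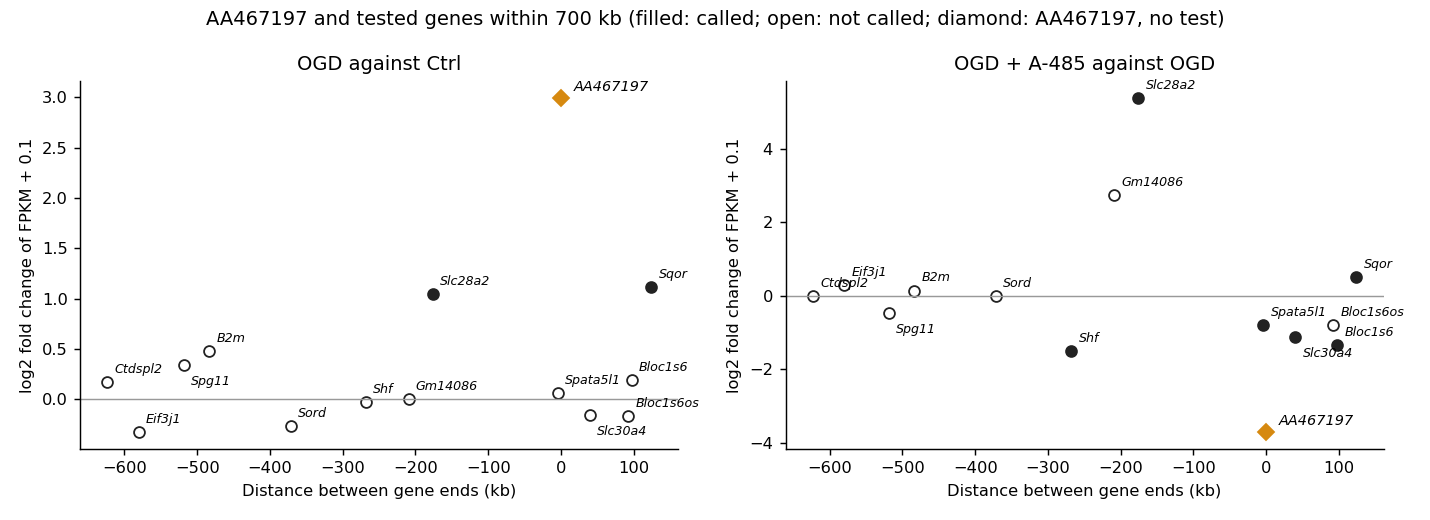
Log2 fold changes of FPKM + 0.1 (vertical axes) of tested genes within 700 kb of AA467197 against the distance between gene ends in kb (horizontal axes, negative toward lower coordinates), in OGD against Ctrl and in A-485 against OGD; filled points were called, open ones were not, and the diamond is AA467197, which has no test. Slc28a2 and Gm14086 lie near 0 FPKM in Ctrl and OGD, where the added 0.1 sets much of a fold. AA467197 was chosen for its change, so its distance from its neighbours is no result of its own. With OGD it is at 2.99, far above them, and with A-485 the genes within 100 kb lie between -1.34 and -0.79, and AA467197 at -3.71.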

How the data were processed

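The libraries were made from total RNA with an mRNA-seq kit, per the labels. According to the study's methods, the authors counted reads on genes with featureCounts, and the authors deposited FPKM for 54532 genes with gene lengths. The submitters' processing notes name GRCm38 and mm10, and the coordinates of GENCODE M21 were those of 98.3% of the identifiers present in it. The aligner, the strand setting and the treatment of reads on several genes are not given in the sources used here. FPKM times gene length and the authors' divisor gave whole reads (tolerance 0.01) for 100% of values above 0, between 12593250 and 16091038 per library. Replicates of a group were not identical and spread wider than counting alone (chi-square over its degrees of freedom 2.67 to 5.24).

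From the deposited FPKM, genes averaging 0.2 FPKM or more were kept, and limma 3.58.1 (R 4.3.3) was run on log2(FPKM + 0.1) of the 9 libraries with 3 group means and a trended prior variance. Genes were called when p was below 0.01 and the log2 fold change exceeded 0.5 in size, with Benjamini-Hochberg adjusted p-values beside. The authors used DESeq2, which was not run here. Ratios of paralogs within a library were compared with two-sided exact permutation tests, adjusted over 9. The ratio of Ndufa4l2 to Ndufa4 was left out, since 0 or 1 read would leave it to the pseudocount. Stretches of 50 bases were compared between GENCODE M21 transcripts. The limma step was tested on simulated data. The rest ran in Python 3.11.15 with pandas 2.3.3, numpy 2.4.6 and scipy 1.17.1, and matplotlib 3.10.9 drew the plots.

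The 10 genes and the gene lists were chosen with earlier results of these data known. Named were all 10 genes, up to 3 called genes with the largest rise and the largest fall in each list and comparison, the 8 genes most like AA467197 and the 3 nearest tested genes on each side of it. Genes that share sequence or place with the 10 genes, markers, and genes too low to test are named as well. Cmc1, Hif1a, Higd2a and Sqor were added after their values were seen, although Cmc1 also falls under the rule for called genes. The alternatives were no filter, a filter at 1 FPKM, pseudocounts of 1 and 0.01, quantile normalization, equal total FPKM, the replicate number as a block, an adjusted p under 0.05, limma-voom run on the recovered reads, the median of the 50 nearest genes taken off, and each library left out in turn. Those 50 genes, averaging 1 FPKM or more, reached 17372 kb from Ndufa4, 7293 kb from Cox7a2, 4765 kb from Cox7a2l, 2498 kb from Higd1a and 2193 kb from Lonp1.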

Additional observations from a re-analysis of the deposited data

How the results depend on the processing

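The counts of genes called stayed within 1.5 times their value under every alternative run. They are over 16123 genes, except with the other filters, which change the number of genes tested. Deviations from the group means correlated at -0.0023 on average between libraries of the same replicate number (-0.046 to 0.039). No pairing by number shows in that average over genes, which cannot exclude a pairing in some of them. The average between libraries of different numbers, 0.0012, follows from centring on the group means and adds nothing. With the replicate block, 3288, 4046 and 5317 genes were called in OGD against Ctrl, A-485 against OGD and A-485 against Ctrl, in place of 3384, 4139 and 5431, and 4, 1 and 4 of the 8 genes tested.

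Of these 8 genes, 4 were called in OGD against Ctrl and 2 with quantile normalization. In A-485 against OGD 1 was called, but 2 with a pseudocount of 1, 2 with quantile normalization, 2 with equal total FPKM and 3 with limma-voom. Leaving out 1 library gave 3 to 4, 1 to 2 and 3 to 4 genes in the 3 comparisons. Reversed were Cox4i1 in OGD against Ctrl with quantile normalization (-0.10), and, with the neighbouring median taken off, Cox7a2 (0.071) and Cox7a2l (0.14) in A-485 against OGD and Cox7a2 in A-485 against Ctrl (0.32). None of those was called as reported. The log2 ratio of Cox4i2 to Cox4i1 in OGD against Ctrl ran from -0.18 (without Ctrl replicate 1) to 0.92 with 1 library left out, and the other ratios kept their sign, which says nothing about a test that cannot pass 0.05. The AA467197 share with A-485 was 8.69% with a pseudocount of 1 in place of 7.55%, since 1 was then added to each gene. The cause of the other changes was not tested. At these depths Ndufa4l2 and, in Ctrl and OGD, Cox4i2 rest on few reads, and counting error limits what can be said of them.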
